A study of Homo sapiens with 8 samples.

Results

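The genes described here are 10 regulators of alternative splicing whose levels differ between tissues: MBNL1, MBNL2 and MBNL3 of the muscleblind-like family, CELF1, RBFOX2, QKI, the epithelial splicing regulators ESRP1 and ESRP2, and the polypyrimidine tract binding proteins PTBP1 and PTBP2. They were found by matching the human Ensembl identifiers of a deposited expression table to gene symbols, and all 10 had an entry among its 20263 genes. The list was selected on results that included the comparison described here, so the differences of these genes between treatments are given as a description and carry no p-value. RNA was sequenced from PANC-1, an established human pancreatic duct carcinoma line, after 24 h with 10 μM Eupalinolide B (EB), a plant sesquiterpene lactone studied for its effect on pancreatic cancer cells, or with its vehicle dimethyl sulfoxide (DMSO). Each group had 4 libraries, and the columns of the table carry the letters C and H, of which H was read as EB because the experiment had no other group. The methods speak of 4 biological replicates per group and, further on, of triplicates, and do not say how the 2 statements fit together. The spread between libraries is taken here as that between cultures of 1 line, at 1 dose and 1 time.

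Splicing regulators of this kind bind short RNA motifs in or beside an exon and raise or lower its inclusion, often depending on whether they sit upstream or downstream of it. MBNL proteins are zinc-finger RNA-binding proteins that promote adult muscle and brain exon patterns and are best known for being sequestered on expanded CUG repeats in myotonic dystrophy, where CELF1 acts in the opposite direction on many of the same exons. ESRP1 and ESRP2 set the epithelial isoforms of genes such as FGFR2 and CD44, while RBFOX2 and QKI act on many exons that switch between epithelial and mesenchymal cells, and PTBP1 silences PTBP2 outside neurons by skipping one of its exons. The table gives levels of whole genes as TPM, each gene's share of the library's transcripts after scaling by transcript length, and holds nothing on which exons were used.

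The sequences upstream of 3 of these genes are shown because MBNL2 stood apart from the other regulators in the size of its difference, with PTBP1 and CELF1, which differed less, beside it. For each gene the window shown was, of those without exon bases, the one with the most matches to the motif marked. That motif was set for each gene, so the marked letters do not compare the genes. Each runs from 5′ to 3′ on the strand of its gene over the 250 bases before a transcript start annotated by RefSeq on GRCh38.p14. They lie at chr13:97141584-97141833 (plus strand), chr11:47553133-47553382 (minus strand) and chr19:797734-797983 (plus strand), and none overlaps an annotated exon of GENCODE release 44. The MBNL2 start lies 79600 bases before the first base that GENCODE gives to MBNL2, with no GENCODE gene over the window, while the CELF1 and PTBP1 windows lie in introns of those genes. Capitals mark matches to the AP-1 motif TGANTCA in MBNL2 and to the GC box GGGCGG, on either strand, in CELF1 and PTBP1.
MBNL2: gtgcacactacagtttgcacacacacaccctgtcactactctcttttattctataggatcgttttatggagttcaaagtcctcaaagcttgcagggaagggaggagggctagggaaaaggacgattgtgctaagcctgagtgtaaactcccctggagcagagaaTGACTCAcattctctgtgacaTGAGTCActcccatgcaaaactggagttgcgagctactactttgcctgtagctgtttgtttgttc
CELF1: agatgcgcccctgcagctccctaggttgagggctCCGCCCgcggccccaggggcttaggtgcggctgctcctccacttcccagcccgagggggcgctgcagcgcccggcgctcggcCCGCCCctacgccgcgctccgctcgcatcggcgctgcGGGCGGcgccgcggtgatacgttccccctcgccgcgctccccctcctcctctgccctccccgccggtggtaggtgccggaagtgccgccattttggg
PTBP1: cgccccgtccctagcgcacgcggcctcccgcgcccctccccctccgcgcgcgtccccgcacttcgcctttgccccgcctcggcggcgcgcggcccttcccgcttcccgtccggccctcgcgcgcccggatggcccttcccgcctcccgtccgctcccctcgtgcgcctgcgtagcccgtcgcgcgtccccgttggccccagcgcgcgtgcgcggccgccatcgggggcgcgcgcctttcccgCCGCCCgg

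The MBNL2 window shown held the AP-1 motif at 2 places, which began 86 and 65 bases before the start. Another RefSeq start of MBNL2, with its window at chr13:97222083-97222332 over exon bases of the GENCODE gene, had no AP-1 match and 2 CCAAT boxes. Windows were found for 6 of the 10 genes (MBNL1, MBNL2, MBNL3, CELF1, PTBP1 and PTBP2), 17 in all, and the AP-1 motif occurred in 1 of these 17. Among all 35116 windows of this length, 6.57% held at least 1 such match and 0.402% held at least 2. The motif was given this attention after the matches in MBNL2 had been seen. Of the windows shown, GC content was 46.8% in that of MBNL2, 76% in that of CELF1 and 82.4% in that of PTBP1. The GC box occurred in 7 of the 17 windows and in 42.6% of all windows, and the CCAAT box, searched as CCAAT on both strands, in 5 of 17 and in 32% of all. The cAMP response element TGACGTCA and the C/EBP-ATF motif TGATGCAA had no match in the 17 windows, against 1.65% and 0.772% of all windows. The core of the antioxidant response element, TGACNNNGC, matched in 1 of the 17 and in 10.9% of all windows. A match is a run of letters and not a bound site, and the table does not show which start the cells used.

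The identity of the cells was read from marker genes. The keratins KRT8, KRT18 and KRT19 were present in all 8 libraries, at 135 TPM or more, whereas KRT7 and EPCAM, also named for duct carcinoma lines, stayed at 0.387 TPM or below. PTPRC, PECAM1, INS, CPA1 and MYOD1, which mark leukocytes, endothelium, beta cells, acinar cells and muscle, were listed at 0 in every library. The other markers of this list were not all at 0. ALB (hepatocytes) stayed at 0.151 TPM or below, RBFOX3 (neurons) ran from 0.177 to 1.19 TPM and COL1A1 (fibroblasts) from 0.806 to 2.17 TPM. Between 11353 and 11894 genes per library reached 1 TPM. Mitochondrially encoded genes took 39.0% of the TPM in DMSO replicate 4, against 17.0% to 21.1% in the other DMSO libraries and 11.6% to 20.3% in the EB libraries. Read depth is unknown because only TPM were used, so no counting interval is given. Because RNA was extracted in bulk, fewer cells of a type and less RNA per cell cannot be told apart.

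MBNL2 lies on chromosome 13 (97221434 to 97394120, plus strand, hg38). Among the 7 regulators that reached 1 TPM in at least 4 libraries, it had the lowest level in EB relative to DMSO. Its TPM in DMSO replicates 1 to 4 were 49.3, 53.6, 59.7 and 32.6. In EB replicates 1 to 4 they were 7.77, 9.17, 3.26 and 4.33. Every EB library lay below every DMSO library. The mean went from 48.8 ± 11.6 (SD, n = 4) in DMSO to 6.13 ± 2.79 (SD, n = 4) in EB, a ratio of means 7.96 times lower with EB. On the scale of log2(TPM + 1) the difference was −2.86 (standard error 0.29), which ranked 6 from the lowest among the 11725 genes tested. Leaving out each library in turn kept this difference between −3.06 and −2.64.

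MBNL1, the most widely expressed muscleblind gene, on chromosome 3 (152243828 to 152465780, plus strand), varied more between libraries. Its TPM were 33.0, 23.0, 32.6 and 17.3 in DMSO replicates 1 to 4. The EB values were 18.2, 17.4, 2.08 and 14.9. EB replicate 3 was far below the other EB libraries, and EB replicates 1 and 2 were just above DMSO replicate 4, so the groups overlapped. The mean was 26.5 ± 7.64 (SD, n = 4) in DMSO and 13.2 ± 7.52 (SD, n = 4) in EB, a difference of −1.21 (standard error 0.53) on the log2(TPM + 1) scale that came to −0.58 without EB replicate 3. In the annotation, 11.8% of the exon bases of MBNL1 lie under the antisense gene MBNL1-AS1, and whether reads were assigned by strand is not given in the sources used here. MBNL3, which is known from placenta and from muscle precursors, was at or near 0 with no value above 0.023 TPM in any library.

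Summed over the family, muscleblind TPM were 82.3, 76.6, 92.2 and 50.0 in DMSO replicates 1 to 4 and 26.0, 26.6, 5.34 and 19.2 in the EB replicates. The mean of this sum was 75.3 ± 18.1 (SD, n = 4) in DMSO and 19.3 ± 9.88 (SD, n = 4) in EB, with no overlap between the groups. MBNL2 made up 59.9%, 69.9%, 64.7% and 65.3% of the sum in DMSO and 29.9%, 34.4%, 61.1% and 22.5% in EB. MBNL1 was thus the larger part in 3 of the 4 EB libraries, and MBNL2 in EB replicate 3 and in all 4 DMSO libraries. A share within a library does not depend on the scaling between libraries.

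**Figure D1:**
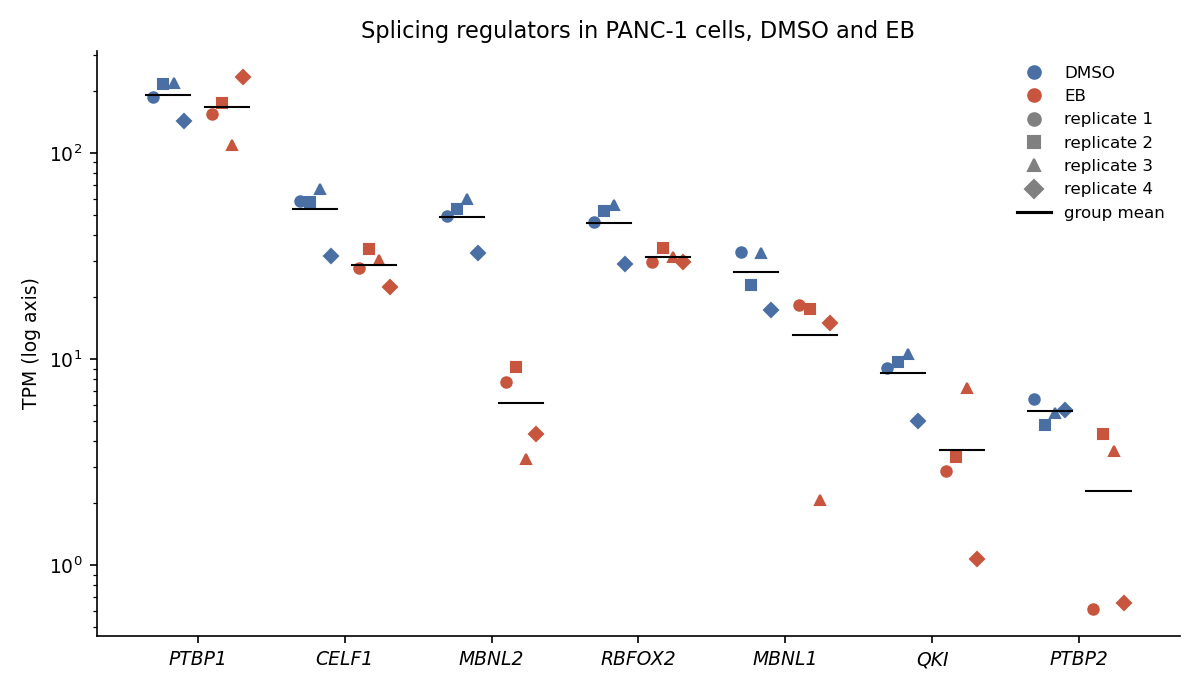
TPM on a log axis of the 7 regulators that reached the filter, in each DMSO (blue) and EB (red) library, with a marker shape for each replicate and a black line for each group mean. MBNL2 lay at 32.6 TPM or more in DMSO and at 9.17 TPM or less in EB, while the PTBP1 values of both groups lay in 1 band.

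CELF1, a binder of GU-rich RNA that counters MBNL proteins at many exons, lies on chromosome 11 (47465933 to 47565569, minus strand). Its TPM were 58.4, 57.7, 66.9 and 31.7 in DMSO replicates 1 to 4. The EB replicates had 27.7, 34.3, 30.4 and 22.5. All 4 EB values lay below DMSO replicates 1 to 3, and the overlap came from DMSO replicate 4, which was below EB replicate 2. The mean was 53.7 ± 15.2 (SD, n = 4) in DMSO and 28.7 ± 4.96 (SD, n = 4) in EB, a difference of −0.84 (standard error 0.23) on the log2(TPM + 1) scale. The ratio of CELF1 TPM to summed muscleblind TPM ran from 0.634 to 0.753 in DMSO. With EB it was 1.06, 1.29, 5.69 and 1.17, so it was higher in every EB library, although CELF1 itself was lower. The value of 5.69 belonged to EB replicate 3, the library with the low MBNL1 level.

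QKI, a STAR-domain protein with roles in myelination, in circular RNA formation and in mesenchymal splicing, lies on chromosome 6 (163414000 to 163578592, plus strand). Its TPM were 9.07, 9.74, 10.6 and 5.04 in the DMSO replicates. The EB replicates had 2.88, 3.34, 7.26 and 1.08. EB replicate 3 was within the DMSO range and the other 3 EB libraries were below it. The means of 8.61 ± 2.46 (SD, n = 4) and 3.64 ± 2.60 (SD, n = 4) gave a difference of −1.18 (standard error 0.37) on the log2(TPM + 1) scale. EB replicate 3 thus had the highest QKI value and the lowest MBNL1 and MBNL2 values of its group.

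RBFOX2, which binds the element UGCAUG and is the main RBFOX gene outside neurons and muscle, lies on chromosome 22 (35738736 to 36028824, minus strand). Its TPM were 46.1, 52.1, 55.8 and 28.9 in DMSO and 29.5, 34.6, 31.3 and 29.7 in EB. DMSO replicate 4 was the lowest of all 8 libraries, and the other DMSO libraries were above every EB library. The mean was 45.7 ± 11.9 (SD, n = 4) in DMSO and 31.3 ± 2.40 (SD, n = 4) in EB, a difference of −0.50 (standard error 0.20) on the log2(TPM + 1) scale.

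The epithelial pair was scarcely present. ESRP1, on chromosome 8, had no DMSO value above 0.045 TPM and was listed at 0 in all 4 EB libraries. ESRP2, on chromosome 16, had 0.324, 0.783, 0.403 and 0.202 TPM in DMSO and 0.146, 0.330, 0.108 and 0.205 TPM in EB. These values are too low for the filter, and the groups overlapped. The epithelial genes CDH1 and EPCAM were also at 0.458 TPM or below in all libraries, while VIM, an intermediate filament gene of mesenchymal cells, was between 5882 and 7771 TPM. The other markers were mixed. KRT7 and GRHL2 were at 0.297 TPM or below, CLDN4 ran from 1.72 to 106 TPM, and KRT8, KRT18 and KRT19 were high as given above. The mesenchymal genes CDH2, ZEB2, TWIST1, SNAI2 and FN1 were at 0.798 TPM or below, and ZEB1 and SNAI1 were between 6.33 and 15.6 TPM.

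PTBP1, the general repressor of exons beside pyrimidine tracts, on chromosome 19 (797075 to 812327, plus strand), was the most abundant of the 10 genes in both groups. Its TPM were 186, 217, 219 and 143 in the DMSO replicates and 154, 175, 110 and 233 in the EB replicates. The highest and the lowest of the 8 values were both EB libraries. The means of 191.3 ± 35.2 (SD, n = 4) and 167.9 ± 51.1 (SD, n = 4) differed by −0.22 (standard error 0.23) on the log2(TPM + 1) scale, which is less than the spread between replicates.

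PTBP2, the paralogue of neurons and testis, on chromosome 1 (96721665 to 96823738, plus strand), had 6.42, 4.82, 5.50 and 5.68 TPM in the DMSO replicates. The EB replicates had 0.613, 4.33, 3.57 and 0.653. The groups did not overlap, but the EB libraries formed a low pair, replicates 1 and 4, and a pair close to the DMSO range, replicates 2 and 3. The low pair lay under 1 TPM, where the counting error is unknown. PTBP2 thus reached the filter of 1 TPM in 4 libraries through DMSO, where it was higher, and the filter favoured that direction. The mean was 5.60 ± 0.659 (SD, n = 4) in DMSO and 2.29 ± 1.94 (SD, n = 4) in EB, a difference of −1.21 (standard error 0.38) on the log2(TPM + 1) scale. As a percentage of PTBP1 TPM in the same library, PTBP2 came to 3.45, 2.22, 2.52 and 3.96 in DMSO and to 0.397, 2.47, 3.25 and 0.281 in EB. On this measure EB replicates 2 and 3 were within the DMSO range. The libraries with little PTBP2 had PTBP1 at 154 TPM (EB replicate 1) and at 233 TPM (EB replicate 4).

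**Figure D2:**
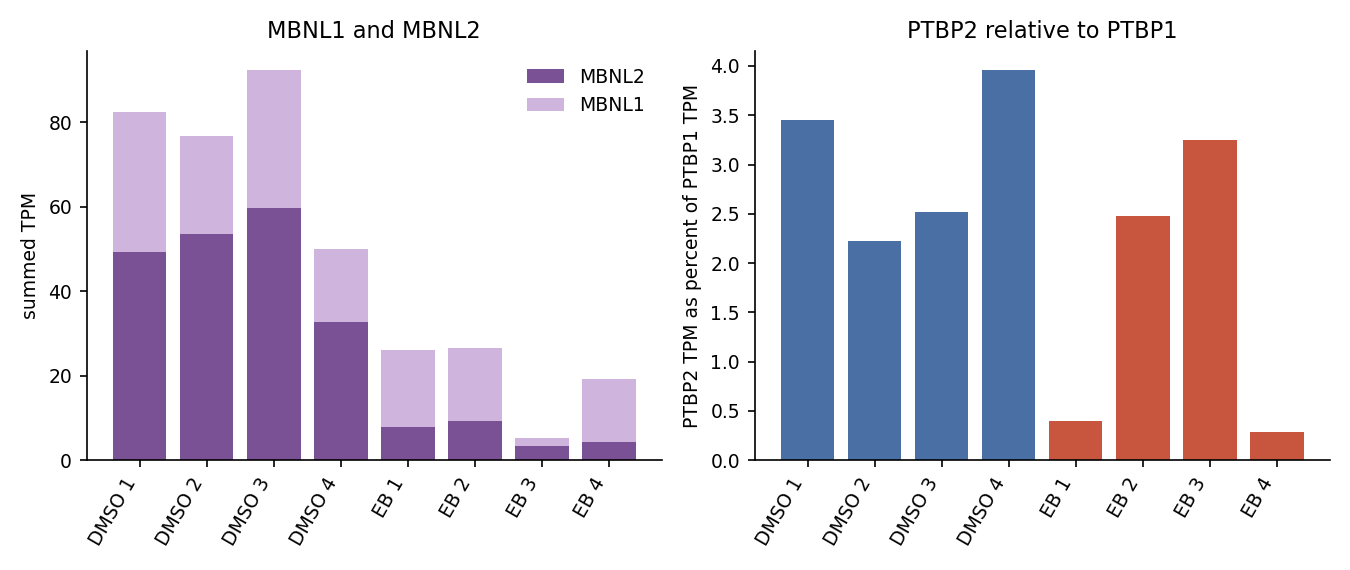
Left, TPM of MBNL2 (dark) and MBNL1 (light) stacked for each library; right, PTBP2 TPM as a percentage of PTBP1 TPM in each DMSO (blue) and EB (red) library. The muscleblind sum was 50.0 TPM or more in DMSO and 26.6 TPM or less in EB, and the PTBP2 percentage was low in EB replicates 1 and 4 only.

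Of the 10 genes, 7 reached 1 TPM in at least 4 libraries and entered the limma fit across all genes, and MBNL3, ESRP1 and ESRP2 did not. All 7 had a lower mean with EB. In that fit, MBNL2, CELF1, QKI and PTBP2 passed an adjusted p under 0.05 in the lower direction, 4 of the 7, where 25.1% of all 11725 tested genes did so, and none of the 7 passed in the higher direction, where 15.2% of all did. CELF1, QKI and PTBP2 missed that threshold in some of the alternative runs given below. The EB libraries lay below all DMSO libraries for MBNL2 and PTBP2, a pattern found in 20.3% of tested genes, and above them for none of the 7, a pattern found in 16.6%. The study names thresholds of p and logFC without saying whether p was adjusted. Read as an unadjusted p under 0.05 and a log2 fold change below −1.5, they were met by MBNL2 alone, and by 1.54% of tested genes in this direction. Nothing is read from these counts, since the list was picked with this comparison known. The median difference of the 7 genes was −1.18 on the log2(TPM + 1) scale, and that of all tested genes was −0.11.

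DMSO replicate 4, the library with the high mitochondrial share, gave the lowest of the 4 DMSO values for each tested regulator except PTBP2. Without it, the EB values lay below the DMSO values for 6 of the 7, all but PTBP1, where 39.5% of all tested genes showed this. Without it, 5 of the 7 passed the adjusted threshold in the lower direction, RBFOX2 being added, where 36.4% of tested genes did. The differences without it were −3.04 for MBNL2, −1.39 for MBNL1, −1.07 for CELF1, −1.39 for QKI, −0.70 for RBFOX2 and −1.21 for PTBP2 on the log2(TPM + 1) scale. With mitochondrial genes left out and the rest rescaled, MBNL2 differed by −3.07.

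Transcript length moved with the treatment difference over all genes, and most of these regulators have long transcripts. The tested genes were ordered by the length of their canonical transcript and cut into 10 classes. In the class with the shortest transcripts, up to 1225 nt, the log2 fold changes had a median of 0.41, and in the class with the longest, from 7317 nt, a median of −0.54. CELF1 (8132 nt) and QKI (9384 nt) belong to the longest class, RBFOX2 (7212 nt) to the class before it, with a median of −0.44, and MBNL1 (5516 nt) and MBNL2 (4650 nt) to a class with a median of −0.35. PTBP1 (3206 nt) and PTBP2 (3321 nt) belong to classes with medians of −0.10 and −0.17. When the trend with length and GC content over all genes was subtracted from each library, the difference was −2.55 for MBNL2, −1.07 for PTBP2, −0.83 for MBNL1, −0.65 for QKI, −0.33 for CELF1, −0.08 for PTBP1 and −0.01 for RBFOX2. Then 2 of the 7 passed the adjusted threshold in the lower direction, MBNL2 and PTBP2, where 21.8% of tested genes did. The part of length in the differences was not tested.

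**Figure D3:**
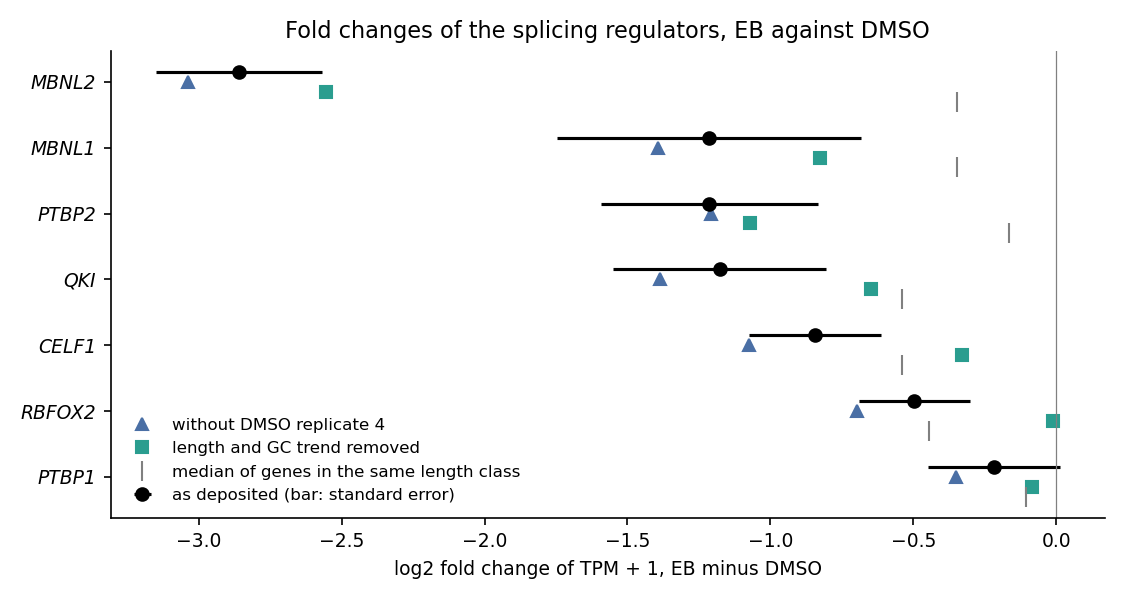
Difference in log2(TPM + 1), EB minus DMSO, for the 7 tested regulators: as deposited with its standard error (black), without DMSO replicate 4 (blue triangles), with the length and GC trend removed (green squares), and the median of all genes in the same class of transcript length (grey ticks). MBNL2 lay at −2.55 or lower in all 3 versions, and RBFOX2 ran from −0.70 to −0.01.

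TPM are per transcript length, so levels can be ordered between genes. In DMSO, PTBP1 came first and its range did not touch that of the next gene. CELF1, MBNL2, RBFOX2 and MBNL1 followed, each overlapping its neighbour in range. QKI and PTBP2 came next, set apart from MBNL1 and overlapping each other, and then ESRP2, with ESRP1 and MBNL3 last and overlapping. In EB the order was PTBP1, RBFOX2, CELF1, MBNL1, MBNL2, QKI, PTBP2, ESRP2, MBNL3 and ESRP1. RBFOX2 and CELF1 overlapped there, and CELF1 was above the whole MBNL1 range. MBNL1, MBNL2, QKI and PTBP2 formed a chain of overlapping neighbours, so that the range of MBNL2 overlapped those of CELF1 and RBFOX2 in DMSO and that of QKI in EB. Within libraries the order was steadier than the ranges. In DMSO, MBNL2 was above RBFOX2 in all 4 libraries and below CELF1 in 3. In EB, RBFOX2 was above CELF1 in all 4 and MBNL2 above QKI in 3.

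Over the 8 libraries, the tested genes outside the list whose log2(TPM + 1) followed MBNL2 most closely were MED12, PLAT, THRA, RBL2 and SUCLG2. Their Pearson r was 0.998, 0.998, 0.997, 0.997 and 0.997 in that order, a description over 8 points that share the split into treatments and their library scaling. MED12 encodes a subunit of the Mediator kinase module, and its mean went from 29.6 TPM in DMSO to 11.7 TPM in EB. PLAT, tissue plasminogen activator, went from 7.66 to 2.02 TPM. Of the listed regulators, CELF1 had the highest r with MBNL2, 0.870, then RBFOX2 with 0.783, MBNL1 with 0.748, QKI with 0.708, PTBP2 with 0.696 and PTBP1 with 0.438.

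Further gene lists show how the rest of the splicing apparatus compared, with limma's adjusted p over all tested genes. Of all 11725 tested genes, 25.1% were lower and 15.2% higher with EB at an adjusted p under 0.05. In the list of other tissue regulators these shares were 43.8% and 12.5%. Of 33 other tissue-restricted splicing regulators, 16 were tested, 7 of them lower and 2 higher with EB (median log2 fold change −0.54), and 9 were listed at 0 in all libraries. NOVA2, which binds YCAY clusters and is known from neurons and endothelium, fell from 5.99 ± 0.914 TPM to 1.44 ± 0.277 TPM (SD, n = 4 each; log2 fold change −1.51 with a standard error of 0.14, limma adjusted p = 0.000121). RAVER2, a PTB-binding co-regulator, and MSI2, a Musashi RNA-binding protein, had log2 fold changes of −0.96 and −0.93 (limma adjusted p = 0.000362 and 0.00332). SRRM3, a microexon regulator, rose from 7.05 ± 2.27 to 14.9 ± 1.26 TPM (SD, n = 4 each; log2 fold change 1.02, limma adjusted p = 0.00408). KHDRBS3, a STAR-domain protein like QKI, rose by 0.84 on the log2(TPM + 1) scale (limma adjusted p = 0.00289). Its DMSO values were 0.675, 0.759, 1.09 and 0.879 TPM, so it passed the filter only through the EB libraries, where it was higher. The filter thus favoured the direction found for this gene. RBM47, counted among the 7 lower genes, had EB values of 0.640, 1.02, 0.808 and 0.525 TPM. Its DMSO values ran from 1.33 to 2.55 TPM, so it passed the filter only through the DMSO libraries, where it was higher.

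SR proteins, which bind exonic enhancers, were lower with EB in 5 of 13 tested genes of 14 listed and higher in none (median log2 fold change −0.30). The lower share was 38.5%, beside 25.1% of all tested genes, and 15.2% of all were higher. SRSF11 had TPM of 109.9 to 130.3 in DMSO and 50.7 to 63.3 in EB (log2 fold change −1.12, limma adjusted p = 0.00025). SRSF2 and SRSF6 had log2 fold changes of −0.64 and −0.62 (limma adjusted p = 0.0405 and 0.00897), and SRSF2 missed the threshold when any 1 library other than DMSO replicate 4 was left out, at −0.46 to −0.69, and when no filter was used. Of the 9 kinases that phosphorylate SR proteins or act beside them, 8 were tested, 5 were lower and none higher, with a median of −0.56. The lower share of these kinases was 62.5%, beside 25.1% of all tested genes. PRPF4B, a kinase of the tri-snRNP, fell from 27.3 ± 3.95 to 9.93 ± 1.79 TPM (SD, n = 4 each; log2 fold change −1.38, limma adjusted p = 0.000308). CLK4 and SRPK2 had log2 fold changes of −1.01 and −0.89 (limma adjusted p = 0.000459 and 0.00435).

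Among 23 hnRNP genes, all tested, 8 were lower and 3 higher with EB (median log2 fold change −0.17). These are 34.8% and 13.0% of the list, beside 25.1% and 15.2% of all tested genes. HNRNPH1, which binds G-runs, fell from 393.9 ± 5.63 to 214.9 ± 12.4 TPM (SD, n = 4 each; log2 fold change −0.87, limma adjusted p = 0.000415), although it has a close relative in HNRNPH2 and how shared reads were split is not given in the sources used here. HNRNPUL1 and HNRNPH3 had log2 fold changes of −0.73 and −0.72 (limma adjusted p = 0.00337 and 0.00297). RALY rose by 1.26 (limma adjusted p = 0.0147), HNRNPAB by 0.63 (limma adjusted p = 0.00289) and HNRNPL by 0.43 (limma adjusted p = 0.0353). HNRNPL missed the threshold without DMSO replicate 2 or 3 or without EB replicate 1, 2 or 3, with log2 fold changes of 0.40 to 0.47. RALY varied from 85.8 to 307.8 TPM among the DMSO libraries.

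The core spliceosome had the reverse split, with 7 of 51 tested genes lower and 18 higher (median log2 fold change 0.21). These are 13.7% and 35.3% of the list, beside 25.1% and 15.2% of all tested genes. With mitochondrial genes left out and the rest rescaled, the split was nearly even, with 11 lower and 12 higher. SNRPA1 of the U2 particle rose by 0.88, and the Sm protein genes SNRPD2 and SNRPB by 0.85 and 0.81 (limma adjusted p = 0.000605, 0.0256 and 0.0151). SNRPD2 missed the threshold without DMSO replicate 3 or EB replicate 1 or 3, at 0.73 to 0.84, and when no filter on low values was used. SF1, which recognises the branch point, had a log2 fold change of −0.84 (limma adjusted p = 0.0114). The helicase gene SNRNP200 and PRPF8, both of the U5 particle, had log2 fold changes of −0.81 and −0.80 (limma adjusted p = 0.00823 and 0.0139). The median transcript length was 2337 nt in this list, 3722 nt in the other tissue regulators, 3959 nt in the SR proteins and 3222 nt over all tested genes. With the length and GC trend removed, the medians were 0.18 for the core spliceosome, −0.24 for the other tissue regulators, −0.18 for the SR proteins, −0.63 for the kinases and −0.05 for the hnRNP genes, beside 0.02 over all tested genes.

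**Figure D4:**
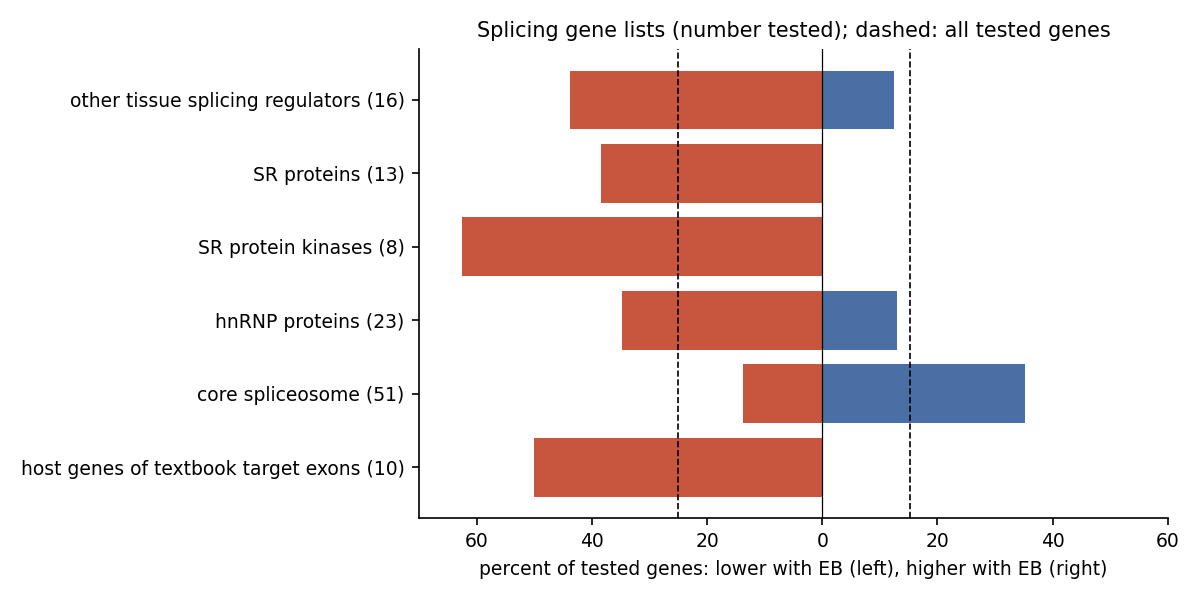
Percentage of the tested genes of each list that were lower (red, to the left) or higher (blue, to the right) with EB at a limma adjusted p under 0.05, with the number tested beside each name and dashed lines at the 25.1% and 15.2% of all tested genes. The core spliceosome was the only list of these 6 with more genes higher than lower.

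Of 12 genes that host textbook target exons of these regulators, 10 were tested, 5 were lower with EB and none higher (median log2 fold change −0.60). Over all tested genes, 25.1% were lower and 15.2% higher. CTNND1, which encodes p120 catenin and carries ESRP-controlled exons, had 35.1, 43.2, 45.7 and 24.0 TPM in DMSO and 14.2, 16.5, 7.47 and 7.25 TPM in EB, without overlap (log2 fold change −1.66, limma adjusted p = 0.00223). ENAH and NUMB, an actin regulator and a Notch antagonist, had log2 fold changes of −1.03 and −0.79 (limma adjusted p = 0.00422 and 0.0229). NUMB missed the threshold without DMSO replicate 1 or 2 or EB replicate 3 or 4, at −0.60 to −0.74. These are levels of the host genes and give no inclusion of any exon. Removing the length and GC trend brought the median of this list to −0.26, with a median transcript length of 5028 nt.

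Of 8 epithelial markers, 4 were tested, 3 were higher with EB and none lower, where 15.2% and 25.1% of all tested genes were. KRT19, KRT18 and KRT8 rose by 1.80, 1.49 and 1.20 on the log2(TPM + 1) scale (limma adjusted p = 3.1e-05, 6.22e-05 and 0.00109), with ESRP1 and ESRP2 as low as given above. KRT8 and KRT18 have many near-identical pseudogene copies that could share their reads. Of 8 mesenchymal markers, 3 were tested and none passed in either direction. Of 8 markers of other cell types, COL1A1, a collagen gene of fibroblasts, was the only one tested, and it was lower with EB (0.896 ± 0.105 against 1.87 ± 0.236 TPM, SD, n = 4 each; log2 fold change −0.60, limma adjusted p = 0.00354). COL1A1 missed the threshold with the length and GC trend removed, at −0.17. Its EB values were 1.05, 0.885, 0.806 and 0.846 TPM, so it passed the filter only through the DMSO libraries, where it was higher. The filter thus favoured the direction found for this gene too.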

How the data were processed

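The authors deposited 1 table of TPM for 8 libraries, normalized within each library (columns sum to 999955 to 999975). Their methods text describes mapping to GRCm38 with CLC Genomics Workbench, then gives hg38 as the assembly and HISAT2 and StringTie among further tools, and the submitters' processing notes list GRCm38, mm10 and hg38. Identifiers are human, and names, positions and canonical transcript lengths are from GENCODE release 44 on hg38, which named 20148 of 20263 genes. Genes that reached 1 TPM in 4 or more libraries were compared as log2(TPM + 1) by limma 3.58.1 in R 4.3.3 (lmFit, eBayes without trend or block, Benjamini-Hochberg adjustment over 11725 genes). The fit was tested on simulated data. Fold changes on this scale understate those of low genes. The listed genes, the other lists, the motifs and the tests were chosen with earlier results of these data known. Named besides the 10 regulators are, in each list, at most the 3 highest and 3 lowest log2 fold changes at an adjusted p under 0.05, the 5 genes most like MBNL2, and markers named for the identity of the cells. RBM47 is named for its values beside the filter. The results were recomputed with a pseudocount of 0.1, without a filter, with a filter of 5 TPM, median-ratio scaling, quantile normalization, nuclear genes rescaled, a natural spline (5 degrees of freedom) of length and GC removed, an intensity trend, a replicate block and each library left out. Promoter windows are RefSeq's. Tables and plots used Python 3.11.15, pandas 2.3.3, numpy 2.4.6 and matplotlib 3.10.9.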

Additional observations from a re-analysis of the deposited data

Results flagged for a closer look

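Among 84 groups of 4 libraries examined for a value far from the rest, 5 held one, and chance alone flags about 1 in 20 groups. The ratio of CELF1 TPM to summed muscleblind TPM was 5.69 in EB replicate 3, against 1.06 to 1.29 in the other EB libraries. SRSF6 was at 88.5 TPM in DMSO replicate 4, against 114.5 to 115.8 TPM in the other DMSO libraries. KRT18 was at 342 TPM in that library, against 413 to 425 TPM. PRPF4B was at 33.1 TPM in DMSO replicate 3, against 24.6 to 26.0 TPM in the others. HNRNPL was at 376.9 TPM in EB replicate 4, against 447 to 462 TPM in the other EB libraries.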

How the results depend on the processing

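MBNL2 passed the adjusted threshold in the lower direction under every alternative run. The list was picked with this comparison known, so passes of the regulators describe how calls move with processing and lend no support. Of the 7 tested regulators, 4 passed as deposited (25.1% of all tested genes in this direction), 2 with no filter on low values (18.8% of all) and 2 with the length and GC trend removed (21.8% of all). With 1 library left out, between 1 and 5 passed: 1 without DMSO replicate 3 (16.9% of all), 2 without DMSO replicate 1 or 2 or EB replicate 1 or 4 (17.0% to 20.9% of all) and 5 without DMSO replicate 4 (36.4% of all). CELF1 missed the threshold without DMSO replicate 3 and with the trend removed. QKI missed it with no filter, quantile normalization or the trend removed. It also did so without DMSO replicate 1, 2 or 3 or EB replicate 1, 2 or 4. PTBP2 missed it with no filter or quantile normalization, and without DMSO replicate 1, 2 or 3 or EB replicate 1 or 4. The regulators whose EB values lay below all DMSO values numbered 2 as deposited (20.3% of all), 5 with median-ratio scaling (24.8% of all), 5 with nuclear genes rescaled (37.1% of all), and 2 to 6 with 1 library left out, 6 without DMSO replicate 4 (39.5% of all). Of the other tissue regulators, 4 were lower and 1 higher with a filter of 5 TPM, where 23.3% of all tested genes were lower. Of the SR proteins, 8 were lower with nuclear genes rescaled (41.4% of all). In the higher direction, 1 passed with median-ratio scaling, quantile normalization, the trend removed or the replicate block (0 to 1 with 1 library left out). Of the hnRNP genes, 15 were lower with quantile normalization (23.5% of all) and 14 with nuclear genes rescaled (41.4% of all). With 1 library left out, 5 to 10 of them were lower, 5 without DMSO replicate 2 or 3 (17.0% and 16.9% of all). With the trend removed, 5 hnRNP genes were higher. Of the core spliceosome, 11 were lower and 12 higher with nuclear genes rescaled, against 7 and 18 as deposited. With nuclear genes rescaled, 41.4% of all tested genes were lower. Of the genes with textbook target exons, 1 was higher with median-ratio scaling and 2 with the trend removed. The cause of these shifts was not tested. Over all genes, the higher share of calls was 37.7% as deposited, 47.7% with median-ratio scaling, 50.3% with quantile normalization, 22.7% with nuclear genes rescaled and 52.8% with the trend removed. With the replicate number as a block, 5756 genes passed against 4729 without it, and 5 of the 7 regulators were lower, as were 30.1% of all tested genes. Same-numbered libraries correlated in their deviations by 0.18, 0.05, −0.09 and 0.28, and different-numbered ones by −0.24 to 0.13. These values do not settle whether the numbers pair the libraries. The all-gene median log2 fold change went from −0.11 to 0.02 with quantile normalization and with the trend removed, and there more genes passed higher than lower. The 7 tested regulators and the genes named from the lists by fold change kept the sign of their fold change in every alternative that included them.

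The limits are those of 8 libraries of 1 cell line at 1 dose and 1 time, with TPM in place of counts. Values under 1 TPM have an unknown counting error, which bears on ESRP2, PTBP2 in EB replicates 1 and 4, COL1A1, KHDRBS3 and RBM47. Gene-level TPM hold no exon inclusion. Assignment of reads by strand and between similar genes is not given in the sources used here, which bears on MBNL1, CELF1, ESRP2 and HNRNPH1. Of the CELF1 exon bases, 2.2% lie under NDUFS3 and 1.3% under PTPMT1, and of those of ESRP2, 4.4% under NFATC3. These are protein-coding genes on the opposite strand.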
